A study of Rattus norvegicus with 12 samples.

Results

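Enzymes of isoprenoid and cholesterol synthesis were followed in RNA that came down with Staufen2 from embryonic rat brain. The genes were taken from the deposited signal table by symbol: Ggps1, Fdps, Fdft1, Hmgcs1, Idi1, Sqle, Lss, Cyp51 and Dhcr7, with every probe of each. Of these 9 genes 8 were on the array, each with 1 probe, among 21701 genes with a symbol, and Lss was not analysed here. They were selected on their place in the pathway and on their Stau2 minus preimmune differences on these same arrays. Those differences are therefore given as a description, without p-values. Neither single calls nor counts of calls support anything about the enzymes, alone or as a set.

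Each sample was a whole-brain lysate of Sprague Dawley rat embryos (E17-E18 in the protocols, P18 in the tissue labels), immunoprecipitated with a rabbit polyclonal antibody against Staufen2, which binds RNA duplexes and travels in neuronal RNA granules (Stau2, 6 arrays), or with preimmune antibody (6 arrays). The RNA was amplified, labelled with biotin and read on 1-colour Illumina BeadChips. Stau2 replicates are numbered 0 to 5, where 0 stands for the array whose label has no number. Preimmune arrays are replicates 1 to 6. The labels tie no array to a brain or lysate, so the spread between arrays may be partly technical.

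Cholesterol and the isoprenoids share a trunk. HMG-CoA synthase (Hmgcs1) acts early on the way to mevalonate, which is turned into isopentenyl diphosphate, and Idi1 makes its isomer. Fdps joins these units into farnesyl diphosphate, where the route divides: Ggps1 extends it to geranylgeranyl diphosphate, a lipid put on Rab and other small GTPases, and Fdft1 condenses it to squalene. Sqle, Lss, Cyp51 and Dhcr7 then carry squalene through lanosterol to cholesterol, which the developing brain makes for itself.

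Arrays of the 2 groups differed in how much RNA they measured, which bears on every value that follows. The share of probes detected (detection p-value under 0.05) was 45.4% to 48.8% on Stau2 arrays and 11.6% to 34.8% on preimmune arrays, and the groups did not overlap (p = 0.00216 by a two-sided exact permutation test, which is the lowest value possible with 6 arrays in each group). On preimmune replicates 2 and 6 it was 17.6% and 11.6%. The yield of an array, the median of its signal over background relative to the Stau2 mean for bright probes, ran from 67.1% to 121% on Stau2 arrays and from 0.393% to 11.2% on preimmune arrays. Of the neuronal markers, 5 of 5 on the array were detected on all Stau2 arrays, as were 6 of 6 neural progenitor markers, while of 3 liver markers on the array Afp and Serpina1 were detected on none of the 12 arrays. The third, Ttr, which choroid plexus also makes, was detected on 6 Stau2 and 5 preimmune arrays and was lower in Stau2 immunoprecipitates by a normalized -2.52 (limma, adjusted p = 0.0228), with raw signals of 930 ± 477 (SD, n = 6) there and 565 ± 480 (SD, n = 6) in preimmune ones. Other markers differed too, where 31.3% of all tested probes were called higher and 14.5% lower. Among the neuronal markers Map2 was called higher and Gap43 and Tubb3 lower. Of the progenitor markers Fabp7 and Vim were called lower and 0 higher. Hbb, of red blood cells, had raw signals of 10018 ± 5291 (SD, n = 6) with Stau2 and 3123 ± 2856 (SD, n = 6) with preimmune antibody, and was not called. The part of these markers in the results was not tested.

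Raw signals of the enzymes were higher in Stau2 than in preimmune immunoprecipitates, and for 7 of the 8 the groups of arrays did not overlap. The same held for 91.1% of the 9136 tested probes, those detected on at least 6 of the 12 arrays, so a higher raw signal was the rule on these arrays. From raw signals, a larger share of the RNA and more RNA in all cannot be told apart, nor can more cells of a type and more RNA per cell.

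**Figure D1:**
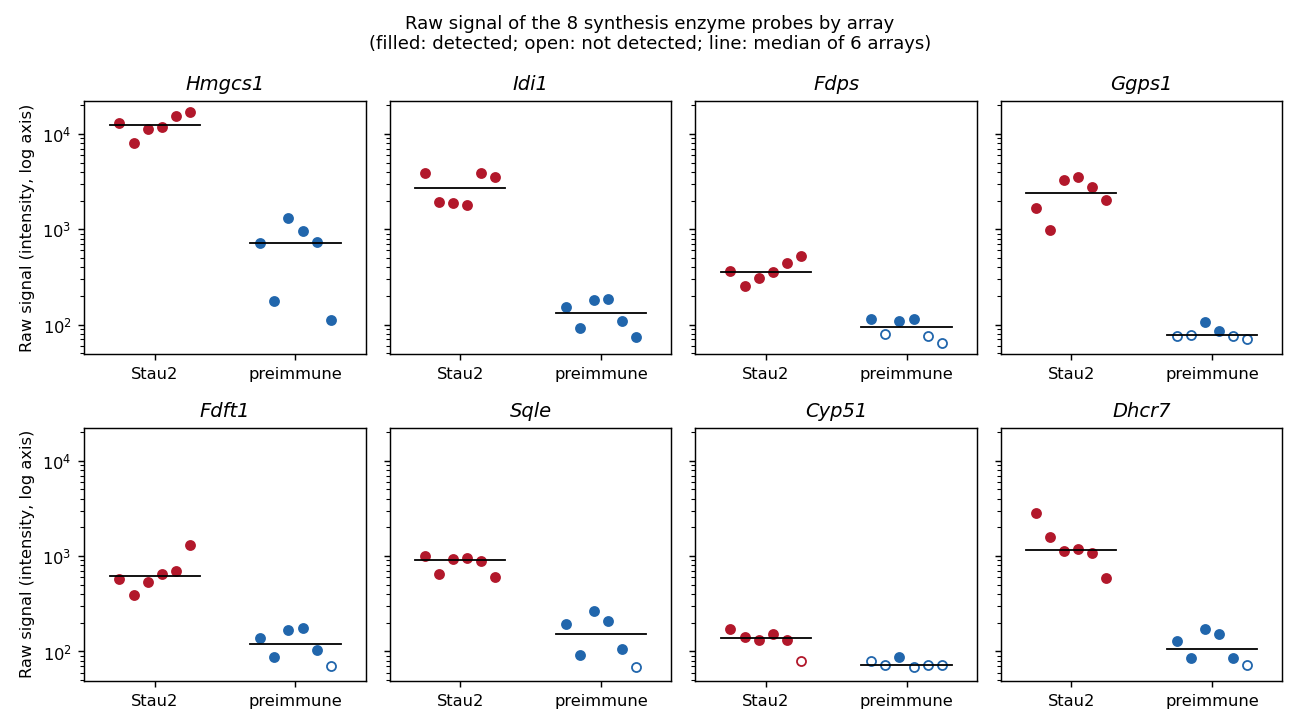
Raw signal intensity (log axis) of the probes of 8 isoprenoid and cholesterol synthesis enzymes on 6 Stau2 arrays (left, red) and 6 preimmune arrays (right, blue), with replicates in order from left to right. Filled points were detected, open points were not, and lines are medians. Stau2 arrays lay above preimmune arrays for every enzyme except Cyp51, whose Stau2 replicate 5 fell among the preimmune arrays.

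Ggps1 had the largest ratio of mean raw signals among the enzymes, 28.9, with background left in both means. Its signal ran from 979 to 3538 on the Stau2 arrays, with a median of 2402, and from 69.9 to 106 on the preimmune arrays, with a median of 77.5. It was detected on all 6 Stau2 arrays but on only 2 of 6 preimmune arrays, replicates 3 and 4, so its preimmune level was mostly at background. After background correction and quantile normalization, which gives all arrays 1 distribution, Ggps1 stood 3.83 ± 0.31 log2 units above preimmune in Stau2 immunoprecipitates (SE, n = 6 per group). With most preimmune arrays at background, the size of this difference depends on how background is handled: it was 3.34 with an offset of 50 in place of 16, and 4.68 with background subtraction. Its normalized values were 9.41 to 10.80 on Stau2 arrays and 5.99 to 6.74 on preimmune arrays.

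Idi1, the isomerase that starts chain building, was the other enzyme whose normalized groups did not overlap. Its raw signal ran from 1814 to 3882 on Stau2 arrays (median 2719) and from 75.02 to 186 on preimmune arrays (median 132), and it was detected on all 12. Normalized values were 9.81 to 10.82 against 8.37 to 9.17 log2 units, a difference of 1.60 ± 0.24 (SE, n = 6 per group). Normalized groups thus stood apart for 2 of the 8 enzymes, and for 20.9% of the tested probes with Stau2 higher.

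Promoter windows were matched by symbol for 6 of the 8 enzymes in RefSeq (GRCr8), with none used here for Fdft1 and Sqle. The arrays measured RNA and not promoter activity, so the windows only describe the genes. The letters CCAAT, searched on both strands in the 250 bases before the start, occurred in Ggps1, Idi1, Hmgcs1 and Fdps, 4 of the 6, and in 34.0% of 33469 RefSeq promoters. GGGCGG, on both strands, occurred in Hmgcs1, Fdps, Cyp51 and Dhcr7, also 4 of the 6, and in 30.5% of all. TCACNCCAC, a core sequence of the sterol regulatory element, occurred in 0 of the 6 windows and in 0.974% of all. Other forms of this element were not searched, so the windows are not shown to lack it. The windows of Ggps1 (chr17:55958500-55958749, plus strand) and Idi1 (chr17:66547525-66547774, minus strand) are shown because these enzymes had the separated normalized groups, read 5′ to 3′ along the gene with ATTGG, the reverse complement of CCAAT, in capitals.
Ggps1: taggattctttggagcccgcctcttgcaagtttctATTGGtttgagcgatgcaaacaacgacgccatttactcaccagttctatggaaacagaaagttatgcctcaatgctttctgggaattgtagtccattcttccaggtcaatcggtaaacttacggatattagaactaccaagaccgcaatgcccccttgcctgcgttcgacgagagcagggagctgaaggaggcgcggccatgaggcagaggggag
Idi1: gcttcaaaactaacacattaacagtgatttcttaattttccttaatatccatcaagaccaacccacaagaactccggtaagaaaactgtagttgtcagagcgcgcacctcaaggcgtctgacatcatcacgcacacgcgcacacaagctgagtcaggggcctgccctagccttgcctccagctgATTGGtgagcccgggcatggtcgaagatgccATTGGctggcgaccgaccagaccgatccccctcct
Neither window holds GGGCGG, and ATTGG occurs at 1 place in Ggps1 and at 2 places in Idi1.

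Hmgcs1, which makes HMG-CoA, had 8110 to 16862 on Stau2 arrays (median 12469) and 112 to 1308 on preimmune arrays (median 722). All 12 arrays detected it. Normalized values were 12.48 to 13.02 against 11.84 to 13.03 log2 units and overlapped through preimmune replicate 5, and the difference was 0.49 ± 0.18 (SE, n = 6 per group).

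Dhcr7, which catalyses the last step to cholesterol in one route, had 592 to 2829 on Stau2 arrays (median 1165) and 72.8 to 171 on preimmune arrays (median 107, 5 of 6 detecting it). Its normalized difference was 1.35 ± 0.47 (SE, n = 6 per group), with overlapping groups of 7.65 to 10.33 and 7.10 to 8.65. The low Stau2 value was that of replicate 5.

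Fdps, the synthase whose product Ggps1 and Fdft1 both use, showed a small normalized difference of 0.40 ± 0.33 (SE, n = 6 per group). Its raw signal was 257 to 523 on Stau2 arrays (median 360) and 64.9 to 115 on preimmune arrays (median 95.0), of which 3 detected it. Its raw ratio of means was 4.02. Background is left in raw ratios, which keeps the ratio of a dim probe low, so this value cannot be set against that of Ggps1.

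Both enzymes that take farnesyl diphosphate on to squalene epoxide, Fdft1 and Sqle, had normalized differences near 0. Fdft1 had 394 to 1323 on Stau2 arrays (median 617) and 70.9 to 176 on preimmune arrays (median 121), with a difference of -0.07 ± 0.42 (SE, n = 6 per group). Sqle had 610 to 1005 on Stau2 arrays (median 912) and 69.6 to 267 on preimmune arrays (median 151), with -0.22 ± 0.53. Each was detected on all Stau2 arrays and on 5 of 6 preimmune arrays, all but replicate 6. With median centring in place of quantile normalization both stood at 0.87, so the sign of these differences depends on the scaling.

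Cyp51, lanosterol demethylase, was close to background in both groups, at 79.0 to 170 on Stau2 arrays (median 137) and 68.5 to 87.9 on preimmune arrays (median 72.4). It was detected on 5 of 6 Stau2 arrays and on preimmune replicate 3 alone. Its difference of -0.01 ± 0.17 (SE, n = 6 per group) carries no measured fold.

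Over all tested probes limma called 31.3% higher and 14.5% lower in Stau2 immunoprecipitates after quantile normalization (Benjamini-Hochberg adjusted p under 0.05). Of the 8 enzymes 4 were called higher (Ggps1, Idi1, Hmgcs1 and Dhcr7) and 0 lower, with a median difference of 0.44 against 0.08 over all tested probes. Since the enzymes were chosen with this contrast known, nothing is read from that count or from the calls of single enzymes, here or in other fits. The repeats only describe how the values move. The Hmgcs1 call held in 2 of 12 repeats that each left out 1 array, those without Stau2 replicate 1 or preimmune replicate 5, with differences of 0.41 to 0.65. The Dhcr7 call ended without Stau2 replicate 0 or 1 or preimmune replicate 2 or 5. The calls of Ggps1 and Idi1 held in all 12, at 3.68 to 3.96 and 1.52 to 1.72. Without preimmune replicates 2 and 6, the arrays with the fewest detected probes, 2 were called higher and 1 lower (Sqle, -0.87), where 30.9% of tested probes were higher and 25.9% lower.

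Median centring moved the split to 7 enzymes higher, all but Cyp51, and 1 lower, Cyp51, where 34.2% of tested probes were higher and 41.4% lower. Differences were then 3.57 for Ggps1, 3.00 for Idi1, 2.40 for Hmgcs1, 2.15 for Dhcr7 and 0.36 for Fdps. Without scaling, on the deposited log2 values, the median of all tested probes was 1.64, and relative to it Ggps1 stood at 3.10, Hmgcs1 at 3.03, Idi1 at 2.76, Dhcr7 at 1.87, Sqle and Fdft1 at 0.92 and 0.82, Fdps at 0.36 and Cyp51 at -0.84. Ggps1 had the highest difference of the 8 on each of these scales, and Cyp51 the lowest on the last and with median centring.

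A further scale, chosen after seeing the data, set each probe against the yield of its array. Background-subtracted signal was divided by the yield, so that a transcript that changed as the typical bright probe did would have the same value in both groups. The scale is relative to bright probes and does not give a share of all RNA. It was fitted over the 3169 bright probes, with an average of at least 500 over background on Stau2 arrays or 50 on preimmune arrays, of which 24.9% were called higher and 35.8% lower. Of the enzymes 6 were bright, all but Fdps and Cyp51: Ggps1 and Idi1 were called higher, and Fdft1 and Sqle lower.

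On that scale Ggps1 ran from 1342 to 3508 in Stau2 immunoprecipitates and from 85.5 to 1176 in preimmune ones. The preimmune values of replicates 1, 2 and 6 were only the floor that background noise sets on those arrays, and the difference of 2.99 ± 0.50 log2 units (SE, n = 6 per group) counts them at that floor. Replicates 3, 4 and 5 had 256, 179 and 188, the last without a detected signal. Without replicates 2 and 6 the difference was 3.70.

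Idi1 had 1759 to 3668 on this scale in Stau2 immunoprecipitates (median 2791) and 909 to 2130 in preimmune ones (median 1242). Only preimmune replicate 6, the array with the lowest yield, reached into the Stau2 range, and the difference was 1.03 ± 0.24 (SE, n = 6 per group). Hmgcs1 had 11964 to 13914 against 8592 to 20533, a difference of 0.16 ± 0.19 in which only preimmune replicate 5 lay above the Stau2 arrays. Dhcr7 had 419 to 2651 against 463 to 1557 and a difference of 0.51 ± 0.39. Neither was called on this scale.

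Sqle lay the other way on yield-scaled values. It had 434 to 919 in Stau2 immunoprecipitates (median 861) and 1109 to 1883 on the 5 preimmune arrays that detected it, all above the Stau2 arrays. Fdft1 had 471 to 580 on Stau2 replicates 0 to 4 and 1021 on replicate 5, against 793 to 1135 on the 5 preimmune arrays that detected it. Preimmune replicate 6 detected neither and is known only to lie at or under its floor of 1176, so it cannot be placed above the Stau2 arrays. With it at that floor the differences were -0.91 ± 0.23 for Sqle and -0.82 ± 0.24 for Fdft1 (SE, n = 6 per group), and without replicates 2 and 6 they were -0.98 and -0.75, both called lower, where 32.1% of bright probes were higher and 35% lower.

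**Figure D2:**
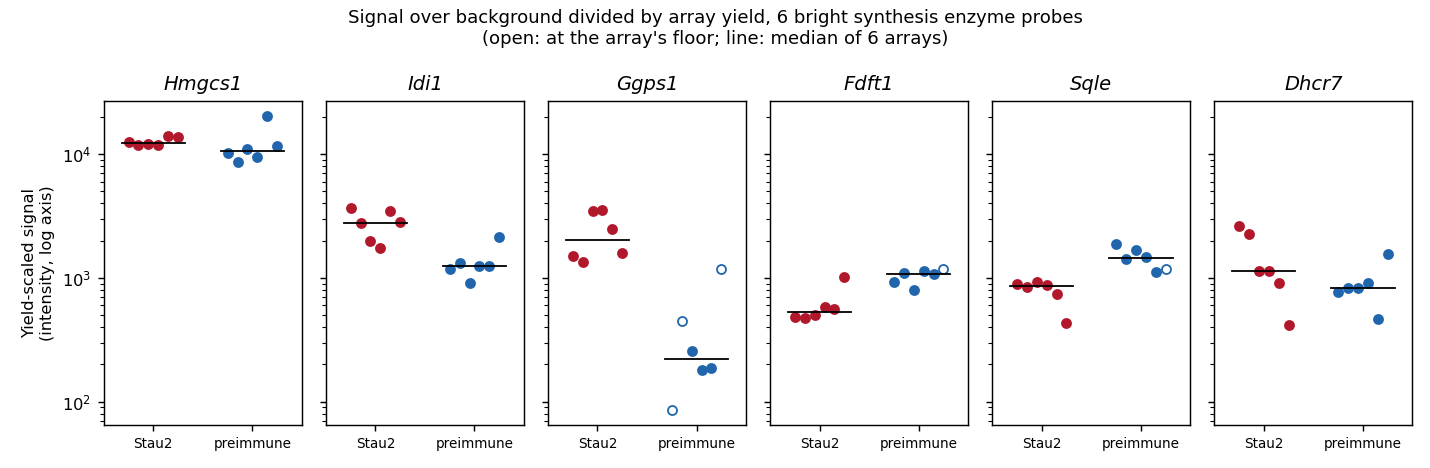
Signal over background divided by array yield (intensity, log axis) for 6 bright enzyme probes on 6 Stau2 arrays (left, red) and 6 preimmune arrays (right, blue). Open points are at the floor of their array and lines are medians. Ggps1 lies higher in Stau2 immunoprecipitates with no overlap, Sqle lies lower than on the 5 preimmune arrays that detected it, and Hmgcs1 overlaps.

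Within the 6 Stau2 arrays the enzymes varied in different directions. The SD of normalized log2 values was 0.98 for Dhcr7, more than for 99.0% of tested probes, and 0.63 for Ggps1, more than for 93.4%, where the median of all tested probes was 0.20. Hmgcs1 and Fdps were close to that median, at 0.19 and 0.17. Idi1, Sqle and Fdft1 were at 0.42, 0.43 and 0.44. The tested probes were not matched to the enzymes for brightness. Whether Dhcr7 and Ggps1 varied more than equally bright probes was not tested.

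Stau2 replicates 0 and 1 were high for Dhcr7, by 1.12 and 0.97 over the Stau2 mean, and low for Ggps1, by -0.56 and -0.68. Replicates 2 and 3 were high for Ggps1, by 0.70 and 0.71, and low for Idi1, by -0.40 and -0.60. These were also the arrays closest to each other over all tested probes, with correlations of their deviations from the group mean of 0.51 for replicates 0 and 1, 0.85 for 2 and 3 and 0.31 for 4 and 5. The labels do not say whether such arrays share a lysate. Replicate 5 was low for Dhcr7 and Sqle, by -1.56 and -0.85, and high for Fdft1, by 0.88. Replicates 4 and 5 and preimmune replicates 5 and 6 carry a second run of codes in the file headers. Within the first run Ggps1, Idi1, Hmgcs1, Dhcr7 and Cyp51 were called higher and Sqle lower, where 30.6% of tested probes were higher and 16.8% lower. Within the second, with 2 arrays per group, limma called 0 enzymes and 0 of all tested probes, where 2310 were higher and 707 lower at an unadjusted p under 0.05.

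**Figure D3:**
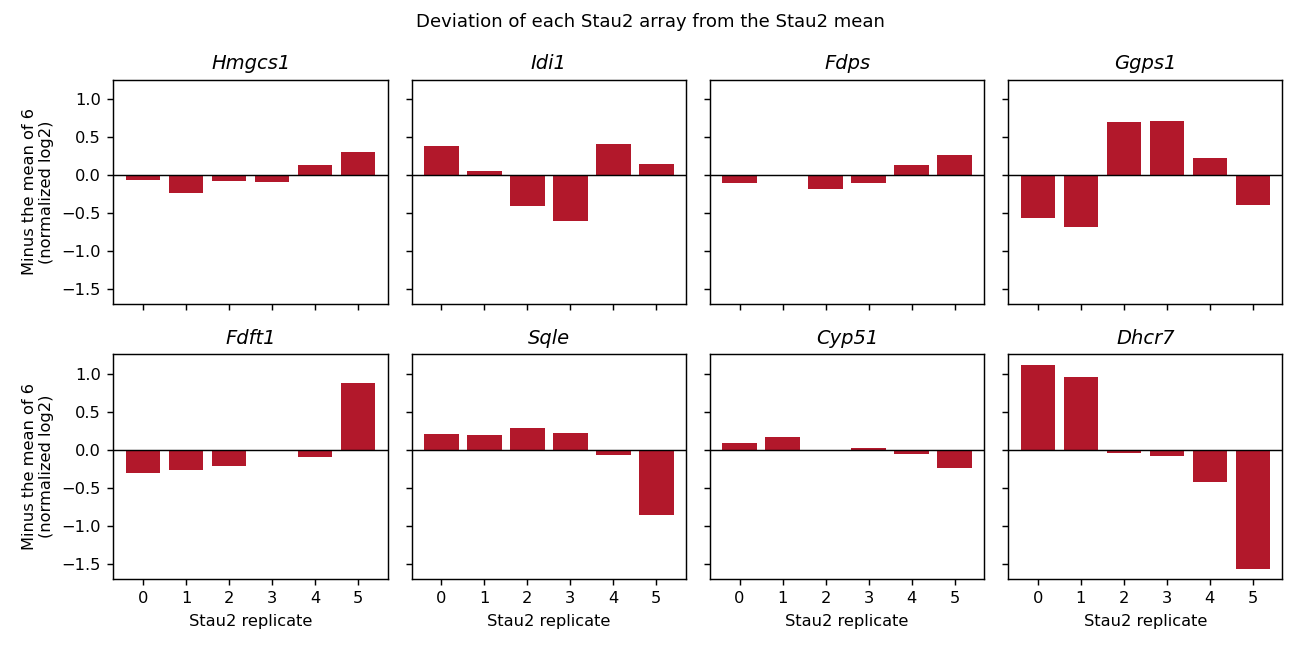
Normalized log2 value of each Stau2 array minus the mean of the 6 Stau2 arrays, for 8 enzymes (bars, replicates 0 to 5). Dhcr7 has 1.12 on replicate 0 and -1.56 on replicate 5, Ggps1 is highest on replicates 2 and 3, and Hmgcs1 stays within 0.31.

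Over the 12 arrays the normalized values most like those of Ggps1 were those of Zfp667 (Pearson r = 0.990), Samd10 (0.990), Eif2s3 (0.989), Eef1g (0.988) and Chek1 (0.988), correlations that follow from the gap between the groups. After each group's mean was taken away, the closest were Nus1 (r = 0.944), Rps3a-ps4 (0.944), Abcb8 (0.929), Chek1 (0.907) and Tpt1 (0.897). Nus1 encodes a subunit of the cis-prenyltransferase that builds dolichol. These are descriptions over 12 arrays, and which of them share a lysate is not known.

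Other genes of the route and its surroundings were taken as lists of 65 names, of which 55 were on the array and 41 probes were tested. Trc8, another name of Rnf139, is among the 65 as a separate name without a probe. The fit called 18 higher (43.9%) and 4 lower (9.76%), where it called 31.3% of all tested probes higher and 14.5% lower, and their median difference was 0.42 against 0.08. Of the 18, 6 were detected on no preimmune array and so entered the test through the Stau2 arrays alone, and for 3 of these the bound on the fold did not exceed 1. The counts by list include them and stand against the same shares. Like the enzymes, the lists were chosen with earlier results of these data known. Nothing is read from these counts or medians, and the p-values of the listed genes are given as description. In the list for the trunk to isopentenyl diphosphate 3 of 4 tested probes were called higher: Mvd, Acat1 and Pmvk, phosphomevalonate kinase. Mvd, mevalonate diphosphate decarboxylase, stood at 1.66 ± 0.45 (SE, with a limma adjusted p = 0.00889). Acat1, at 0.99 (limma, adjusted p = 0.000408), is the mitochondrial acetoacetyl-CoA thiolase. Acat2, the cytosolic thiolase that feeds the trunk, was not on the array, so the Acat1 value is not one of a trunk step. On yield-scaled values Mvd stood at 0.60 and missed the threshold (limma, adjusted p = 0.0578). Pmvk was detected on no preimmune array, so only a bound of at least 1.13-fold can be given, and with median centring it stood at -0.16.

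In the sterol ring steps 2 of 8 tested probes rose and 0 fell. Sc5d, a desaturase of late sterol synthesis, was higher by 1.91 ± 0.60 (SE; limma, adjusted p = 0.0183), with 5 of 6 preimmune arrays detecting it. On yield-scaled values Sc5d stood at 1.01 and missed the threshold (adjusted p = 0.0571). Tm7sf2, Msmo1, Nsdhl, Hsd17b7, Ebp and Erg28 were not called, at -0.52 to 0.88. Of 4 other prenyl diphosphate genes on the array Nus1, detected on 1 preimmune array, rose by 0.59 (limma, adjusted p = 0.000383), and Dhdds, its catalytic partner, fell by -0.69 (adjusted p = 0.0451). With median centring Nus1 stood at 0.03, so its rise depends on the scaling, and Dhdds stood at -0.60. The raw signal of Dhdds was 158 ± 36.7 (SD, n = 6) in Stau2 immunoprecipitates and 88.9 ± 10.2 (SD, n = 6) in preimmune ones. Coq2, a prenyltransferase of ubiquinone synthesis, was called higher but was detected on 0 preimmune arrays, so it entered the test through the Stau2 arrays alone. Its bound after quantile normalization was 1.34-fold, and with median centring it stood at 0.11.

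**Figure D4:**
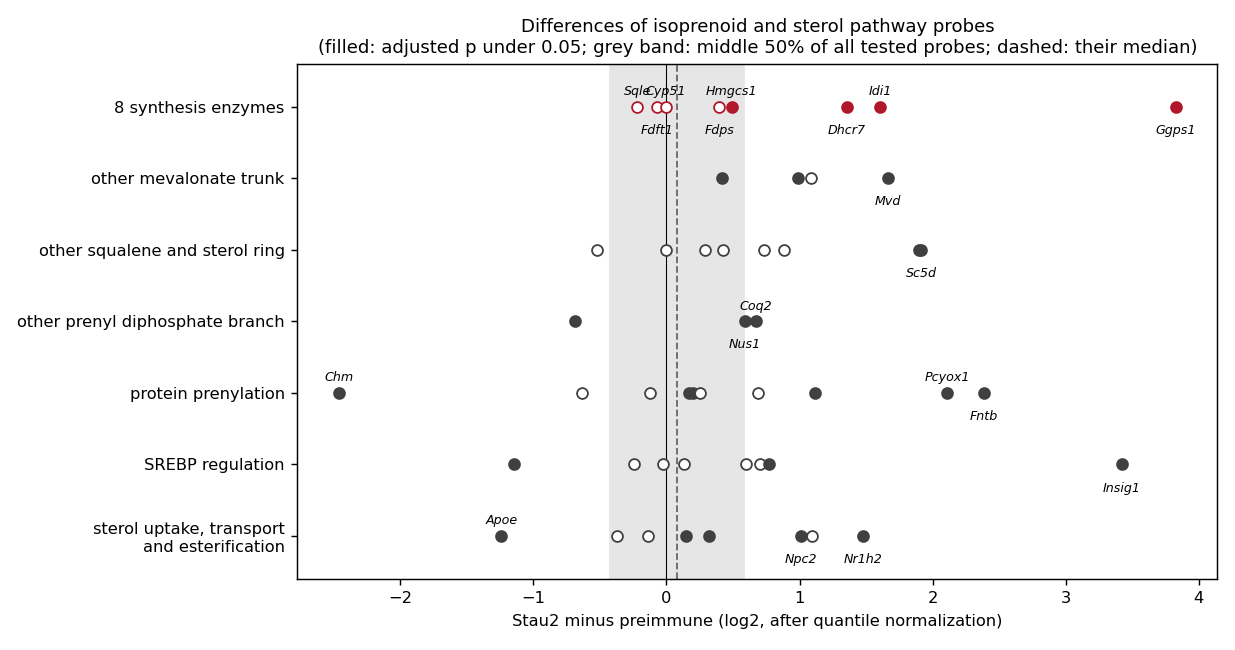
Stau2 minus preimmune log2 differences after quantile normalization for the 8 synthesis enzymes (red) and 41 other probes of the pathway lists (grey). Filled points passed adjusted p under 0.05, the band holds the middle 50% of all tested probes and the dashed line is their median of 0.08. Ggps1 at 3.83 and Insig1 at 3.42 lie farthest right, and Chm at -2.46 farthest left.

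Protein prenylation, which uses the products of Fdps and Ggps1, had 5 probes higher and 1 lower of 10 tested. Fntb, the beta subunit of farnesyltransferase, rose by 2.39 ± 0.34 (SE; limma, adjusted p = 0.000112) and by 1.30 on yield-scaled values (adjusted p = 0.00644). Its partner Fnta, shared with the enzyme that attaches geranylgeranyl groups, did not pass at -0.12 (adjusted p = 0.654), and its yield-scaled value fell by -0.44 (adjusted p = 0.0326). Pcyox1, which breaks down prenylcysteine, rose by 2.11 (adjusted p = 0.0139) and by 1.41 on yield-scaled values (adjusted p = 0.00124). Rabggtb, the beta subunit of the enzyme that prenylates Rab GTPases, stood at -0.63 (adjusted p = 0.146) and on yield-scaled values fell by -0.998 (adjusted p = 0.000587). Zmpste24, a CAAX protease detected on 1 preimmune array, rose by 1.12 (adjusted p = 0.00162). Rce1, another CAAX protease, and Icmt, a methyltransferase, were called higher but were detected on 0 preimmune arrays, their bounds did not exceed 1, and with median centring they stood at -0.44 and -0.49, so no rise is shown for them. Chm, a Rab escort protein, fell by -2.46 ± 0.59 (adjusted p = 0.00450), with raw signals of 120 ± 5.78 (SD, n = 6) in Stau2 immunoprecipitates and 107 ± 7.60 (SD, n = 6) in preimmune ones, so that its raw signal was the higher with Stau2.

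Insig1, which holds the sterol sensor Scap in the endoplasmic reticulum, rose by 3.42 ± 0.32 (SE; limma, adjusted p = 6.63e-06). Its raw signal was 2369 ± 645 (SD, n = 6) in Stau2 immunoprecipitates and 92.8 ± 23.1 (SD, n = 6) in preimmune ones, with 3 preimmune arrays detecting it, and its yield-scaled difference was 2.37 (adjusted p = 3.72e-05). Its paralog Insig2, detected on all 12 arrays, did not pass at 0.60 (adjusted p = 0.208) and stood at 0.09 on yield-scaled values (adjusted p = 0.839). Ubxn8 fell by -1.15 (adjusted p = 0.0368), while its raw signal was 101 ± 5.71 (SD, n = 6) in Stau2 immunoprecipitates and 86.3 ± 7.22 (SD, n = 6) in preimmune ones. Of 8 tested probes in the list for sterol-sensing regulation 2 rose and 1 fell. The 1 that fell was Ubxn8, and a part for it in sterol sensing is not shown here. Srebf2, the main transcription factor of sterol synthesis, was detected on 5 Stau2 and 0 preimmune arrays and was not tested.

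Among genes of sterol uptake, transport and esterification 4 probes were called higher and 1 lower of 8 tested. Nr1h2, a liver X receptor, and Npc2, a lysosomal sterol carrier, rose by 1.48 and 1.01 (limma, adjusted p = 0.00507 and 0.00463). On yield-scaled values Nr1h2 stood at 0.41 and was not called (limma, adjusted p = 0.197). Npc2 stood at 0.75 there and was called higher (adjusted p = 0.011). Scarb1, a lipoprotein receptor, and a probe of Npc1 that the file names Cdig2 were called higher with 0 preimmune arrays detecting them, and stood at -0.28 and -0.50 with median centring. The bound for Scarb1 was 1.09-fold after quantile normalization, which median centring did not bear out. For the Npc1 probe the bound did not exceed 1, so no rise is shown for either. Apoe, the main apolipoprotein of brain, fell by -1.24 (adjusted p = 0.00219), while its raw signal was 141 ± 32.1 (SD, n = 6) in Stau2 immunoprecipitates and 99.9 ± 23.4 (SD, n = 6) in preimmune ones.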

How the data were processed

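The authors deposited 1 table of 22226 probes holding each array's raw intensity and detection p-value, and a second table of log2 values, which equalled the log2 of the raw signal within 0.0001. The submitters' processing notes name RMA, whose version, like the array annotation, is not given in the sources used here. Detection p-value columns carry codes absent from the labels. Each was taken with the signal beside it, as the deposited order of the headers gives them, and sorting by that signal left 205 to 268 of 22225 adjacent probe pairs with p-values in the wrong order, against at least 6744 with another array's signal. Bead standard errors (12 columns) had no use here.

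Signals were corrected with limma's normexp (background inferred from the detection p-values, offset 16) and quantile normalized. The 9136 probes detected on at least 6 of 12 arrays were tested with lmFit and eBayes with an intensity trend (limma 3.58.1, R 4.3.3, two-sided, Benjamini-Hochberg over all tested probes). Errors of differences are the fit's SE. The procedure was tested on simulated data. Bounds set the bright group's mean against, per dim array, the higher of the lowest detected value and the probe's own. Yield-scaled values used the median signal of probes with detection p near 0.5 as background and its spread as floor. Alternatives were other scalings, background corrections, filters, weights, blocks and left-out arrays.

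Symbols were updated through a RefSeq table (GRCr8, names only): 8014 by current symbol, 5393 by gene number, 3405 by an older symbol, 5217 kept as in the file and 197 without a symbol. Pathway genes were named where called, up to 6 per list by adjusted p, with Srebf2 and Insig1 in any case. Some results are not reported here. All enzymes and lists were chosen with earlier results of these data known. The number of arrays limits the precision.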

Additional observations from a re-analysis of the deposited data

Results flagged for a closer look

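In 16 groups of 6 arrays, 6 enzyme values lay far from the rest of their group, where chance alone gives about 1 in 20 groups. All are normalized log2 values.

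Fdft1 on Stau2 replicate 5 was 9.03, where the next Stau2 array had 8.13. Sqle on the same array was 7.69, below the next value of 8.48. Hmgcs1 on preimmune replicate 5 was 13.03, above 12.23 on the next preimmune array and above every Stau2 array.

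The other 3 were on preimmune replicate 6, which detected 11.6% of probes: Sqle at 6.15 (next 8.72), Fdft1 at 6.40 (next 8.15) and Cyp51 at 7.12 (next 6.16). That array detected none of these 3 probes. Their part in the group differences is seen in the values without it: Sqle was then at -0.74 and called lower, and Cyp51 at 0.17 and called higher.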

How the results depend on the processing

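Ggps1 and Idi1 kept their direction under all alternatives run for them, and lost their calls only within the second header code run (3.84 and 2.04, 2 arrays per group). Enzymes called higher numbered 4 in the reported fit (31.3% of all tested probes) and 2 to 4 with 1 array left out (28.5% to 32.2%). They numbered 8 without scaling (normexp or deposited values, which called 9135 of 9136 and 97.5% of all probes higher) and 7 with median centring (34.2% of all). They numbered 2 with no detection filter (13.9%), 2 of 2 tested over probes detected on all 12 arrays (15.7%), and 0 within the second code run. They numbered 2 without preimmune arrays under 20% detected (30.9%) and on both yield-scaled fits (24.9% and 32.1% of bright probes). With mutually closest arrays averaged (3 Stau2 and 4 preimmune samples) they numbered 2 (21.9%). Enzymes called lower numbered 0 in the reported fit (14.5% of all tested probes) and 0 to 1 with 1 array left out (11.7% to 19.9%). They numbered 2 with array weights (31.6%) and on both yield-scaled fits (35.8% and 35% of bright probes). They numbered 1 with median centring (41.4%), within the first code run (16.8%) and without preimmune arrays under 20% detected (25.9%). Of the other pathway probes, 18 higher and 4 lower became 18 to 20 and 2 to 5 with 1 array left out, 41 and 0 with normexp unscaled, 40 and 0 on deposited values, 1 and 1 of 6 over probes detected on all 12 arrays, 0 and 0 within the second code run, 5 and 2 of 15 on yield-scaled values, and 6 and 2 of 15 on that scale without the dim preimmune arrays. The lower count alone moved to 13 with median centring, 10 with array weights, 7 without the dim preimmune arrays, 2 with no detection filter and 1 with closest arrays averaged.

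The median of all tested probes was 0.08 in the reported fit, 2.57 with normexp unscaled and 1.64 on deposited values. Signs turned for enzymes near 0, and the cause was not tested. Sqle stood at 3.49 with normexp unscaled, 2.56 on deposited values, 0.87 with median centring and 0.65 in the second code run. With 1 array left out Fdft1 ranged over -0.44 to 0.088 and Cyp51 over -0.052 to 0.17. Fdft1 stood at 3.49, 2.46, 0.87 and 1.01 in the same order, at 0.020 with background subtraction, and at 0.016, 0.088 and 0.016 without preimmune replicate 1, 4 or 5. Fdps stood at -0.26 with array weights and -0.034 in the first code run. Cyp51 stood at 2.13 with normexp unscaled, 0.80 on deposited values, 0.14 without background correction, 0.17 with array weights, 0.24 in the first code run, 0.16 without the dim preimmune arrays, 0.57 with background subtraction, 0.043 with closest arrays averaged, and 0.0041, 0.040 and 0.17 without Stau2 replicate 4 or 5 or preimmune replicate 6.

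Deviations of same-numbered arrays correlated at 0.26, 0.051, 0.22, -0.12 and 0.30 for numbers 1 to 5, highest with their own number in 3 of 5. The labels do not say that a number marks a shared lysate, so whether the numbers pair the samples is undecided and the reported fit has no block. With the replicate block 4 enzymes were higher and 1 lower (Sqle, -0.79), where 27.9% of tested probes were higher and 17.5% lower. Cyp51 stood at 0.16 in that fit. The yield-scaled fits, background subtraction and the averaging of closest arrays were chosen after seeing the data.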
